A study of Canis lupus familiaris with 77 samples.

Results

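cfa-miR-204 and cfa-miR-211 are 2 closely related miRNAs among the 650 mature miRNA forms that had at least 1 read in the libraries used. They were taken from the table of counts by name, as the entries whose name, cut where its other species' names begin, is cfa-miR-204 or cfa-miR-211, and an entry missing for a sample was read as 0 reads. They were selected on their RPM levels in kidney and brain in these same samples, so their levels are a description here and carry no test. The cfa-miR-204 entry also carries the human and rat names of the 5p arm, and the cfa-miR-211 entry the rat name of the 5p arm. A further entry, hsa-miR-204-3p, holds the opposite arm of the miR-204 hairpin and is described beside the members.

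The libraries came from untreated male Beagle dogs of the Marshall line, 10 months old, that were perfused with phosphate buffered saline before the organs were taken. There were 76 libraries of 16 tissues, with 5 samples in each of 14 tissues, 4 in colon and 2 in sciatic nerve, where low RNA yields led to pooling that the labels do not resolve. Tissues were taken from the same dogs, but the labels carry no dog number, so samples of different tissues could not be matched, and replicate numbers only name samples. The labels give neither the region of the brain nor the part of the kidney. All samples were bulk tissue, so fewer cells of a type and less of an miRNA per cell cannot be told apart.

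Animal miRNAs are short RNAs cut from hairpins, and the bases near the 5′ end, the seed, choose the target messenger RNAs. The gene of miR-204 lies within TRPM3 and the gene of miR-211 within TRPM1, which encode related ion channels of the melastatin group, and both miRNAs are usually treated as a single family because of their near-identical mature sequence. TRPM3 is known from the choroid plexus, the retinal pigment epithelium and kidney tubules, and TRPM1 from melanocytes and the retina. In RefSeq's genes for a different dog assembly, UU_Cfam_GSD_1.0, 2 of 2 members were found, MIR204 within TRPM3 and MIR211 within TRPM1.

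Reads on miRNAs ranged from 157871 to 7896424 per library, with a median of 1364823. Kidney libraries had 1090108 to 6684616 reads and brain libraries 785857 to 3217077. Levels are given as RPM, the reads of an miRNA scaled to a fixed total of reads on miRNAs in that sample (reads per 1000000). A count of 0 allows up to 3 reads at 95% confidence, which was 0.449 to 2.75 RPM in kidney, 0.933 to 3.82 RPM in brain and 0.380 to 19.0 RPM over all libraries. These limits and the intervals below cover counting error only, since PCR makes several reads of 1 molecule. The paper reports low RNA integrity in plasma, bone marrow and a part of the kidney samples, and the most variable mapping of reads in thymus. RNA integrity was not set against the levels here.

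miR-204 was an abundant miRNA of kidney and brain and was found at lower levels in nearly all other tissues. Of its 254083 reads, 156685 were from kidney and 72962 from brain, 90.4% of the total in these 10 libraries. At least 1 read was present in 75 of the 76 libraries. By median RPM, kidney came first with 7234, followed by brain with 5411 and testis with 2794, which were 74.8% and 38.6% of the kidney level.

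The kidney samples lay close together. Their miR-204 levels were 6267, 7284, 7234, 9751 and 6563 RPM in replicates 1 to 5, with a mean of 7420 ± 1374 RPM (SD, n = 5) and a coefficient of variation of 18.5%. No sample outside kidney and brain reached the lowest kidney sample. By median, miR-204 was the 16th most abundant miRNA of kidney.

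The brain samples differed far more from each other. Their miR-204 levels were 5411, 3927, 18388, 8209 and 2833 RPM, with a mean of 7754 ± 6278 RPM (SD, n = 5) and a coefficient of variation of 81.0%. Brain replicate 3 held the highest level of the 76 libraries, and the highest brain sample was 6.49 times the lowest. The brain range enclosed the whole kidney range, so the order of these tissues depends on the summary: kidney was first by median and brain was first by mean. In brain, miR-204 was the 31st most abundant miRNA by median.

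Testis was the only other tissue with samples at the brain level. Its miR-204 levels were 2794, 1152, 733.6, 3352 and 3235 RPM, and 2 of them exceeded the lowest brain sample. The 2 sciatic nerve samples held 1070 and 259 RPM. Bone marrow had a median of 715 RPM (437 to 984) and thymus a median of 434 RPM (177 to 1293), with thymus replicate 4 at the top.

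Lung, liver and heart had medians of 367, 288 and 207 RPM. The duodenum had a median of 184 RPM (51.3 to 609) and the jejunum of 125 RPM. Skeletal muscle (69.8 RPM, 16.4 to 331), pancreas (58.6), colon (56.5) and ileum (44.3) followed. Each tissue's range overlapped that of the next tissue in this order, except that all ileum samples lay above all plasma samples. In plasma, miR-204 was near the limit of detection, with 0 to 8 reads per library and at most 5.53 RPM.

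**Figure D1:**
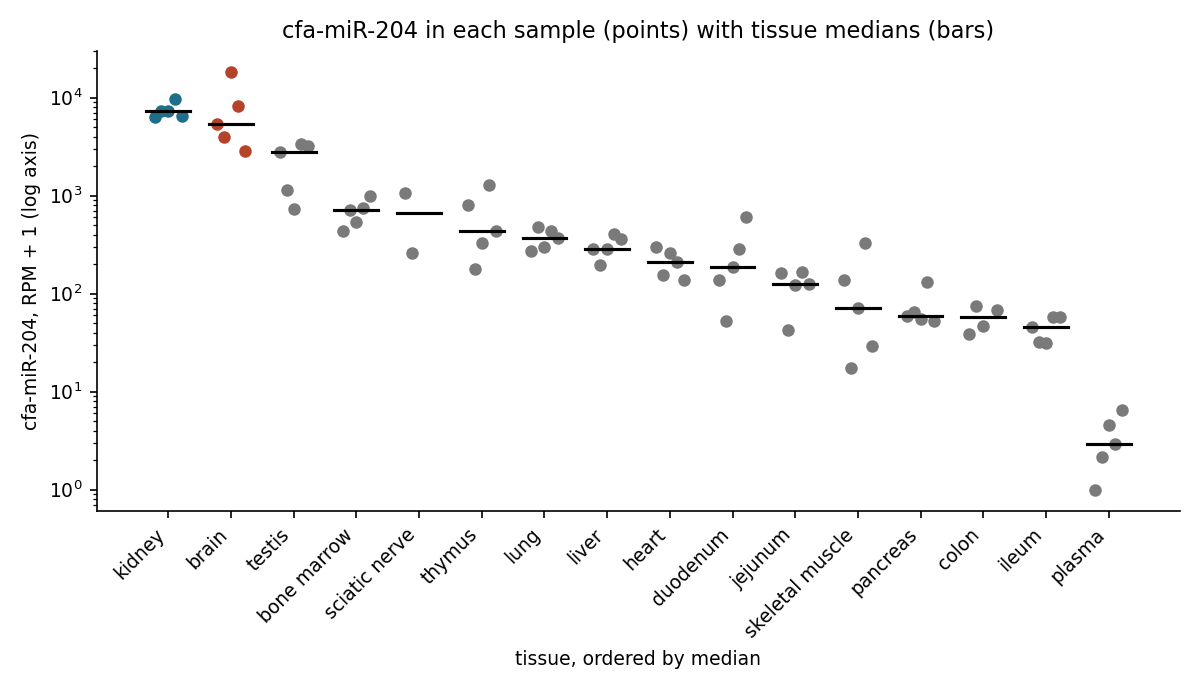
miR-204 in each of the 76 samples, as RPM + 1 on a log axis, with tissues ordered by median (bars). The 5 kidney samples lie together between 6267 and 9751 RPM, the 5 brain samples spread from 2833 to 18388 RPM, and plasma lies at 5.53 RPM or less.

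Enrichment was taken, as in the study, from the mean of a tissue against the mean of the remaining samples. By this measure miR-204 was 8.04-fold higher in kidney and 8.62-fold higher in brain. These 2 tissues count among each other's reference samples. The study also asks for an adjusted rank-sum p, which is not given for the members here, and it reports no enriched miRNA in kidney. Against the highest single sample elsewhere, the kidney median was 0.393 and the brain median 0.555 of that sample, since each tissue's highest comparator was in the other. Without brain replicate 3 the brain fold was 5.67, and its median 4669 RPM.

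The scaling of the libraries changed the distance between kidney and brain. In kidney a single miRNA, miR-10b, took 34.3%, 29.8%, 47.9%, 44.6% and 54.8% of the reads in replicates 1 to 5, against 0.0851% to 0.269% in brain. With TMM-scaled library sizes, the miR-204 median was 8817 per 1000000 in kidney and 2037 in brain, and the folds over other samples were 15.4 and 4.15. With DESeq2 size factors the medians were 10803 and 3473 per 1000000, and the folds 12.6 and 5.90.

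Kidney came first and brain second by median under each of the 3 scalings. Their ranges overlapped under each, but the brain median lay below the lowest kidney sample each time. That sample stood at 6267 RPM with total reads, and at 5969 with TMM and 6637 with DESeq2 size factors per 1000000. Brain replicate 3 stayed the highest brain sample, with 11705 per 1000000 under TMM and 14493 with DESeq2 size factors. Over 303 miRNAs, the median log2 difference between kidney and the other samples was -0.48 with total reads, -0.19 with TMM and -0.18 with DESeq2 size factors, and the difference for miR-204 was 5.24, 5.60 and 5.62. In brain the median over all miRNAs moved from 0.51 to -0.46 and 0.13, and the difference for miR-204 from 4.98 to 3.89 and 4.62. The difference for miR-204 exceeded that of 99.3% of the miRNAs in kidney and of 86.1% in brain. A scaling common to all miRNAs of a library leaves these places nearly as they are. Since miR-204 was selected on its levels in these tissues, the places are a description and no test of it.

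**Figure D2:**
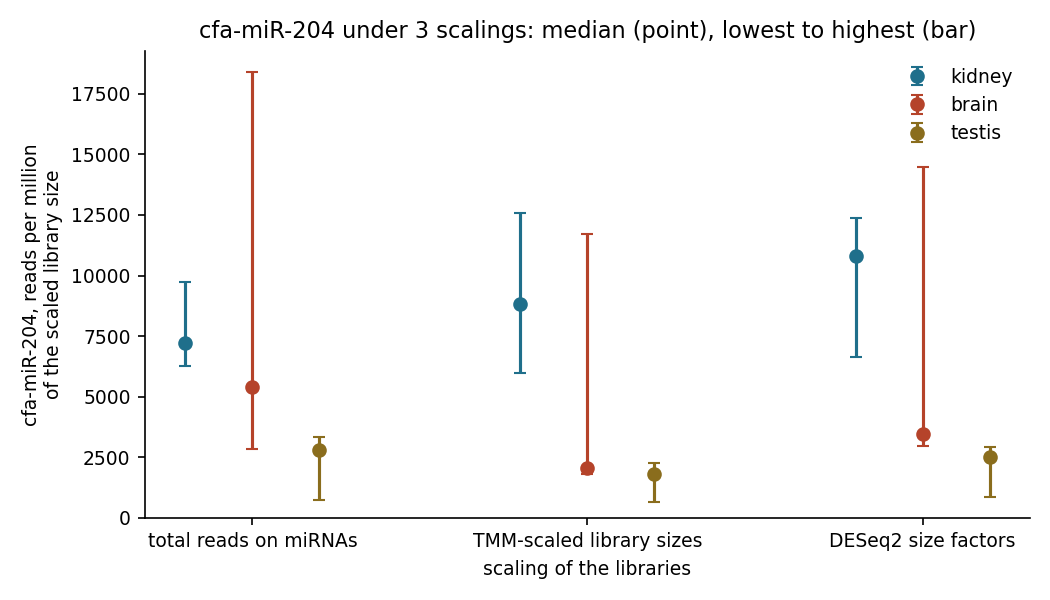
miR-204 in kidney, brain and testis as reads per 1000000 of the scaled library size, under 3 scalings, with the median (point) and the lowest and highest sample (bar). The kidney median rises from 7234 with total reads to 8817 and 10803, and the brain median falls from 5411 to 2037 and 3473. The brain bars overlap the kidney bars throughout, while each brain median lies below the lowest kidney sample.

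miR-211 was rare everywhere, and its reads came mainly from brain. It had 105 reads in the 76 libraries, of which 58 were in brain, 8 in kidney and 39 in the other 66 libraries. Only 24 libraries held a read and 6 held more than 3 reads. In kidney, where miR-204 was most abundant by median, 4 of 5 libraries held 0 or 1 read of miR-211. Reads were counted per mature form with no length term, and both members are set side by side on that scale.

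In brain, replicates 1 to 5 held 10, 10, 3, 11 and 24 reads of miR-211, or 12.7, 3.11, 1.47, 7.45 and 10.4 RPM, with a mean of 7.04 ± 4.75 RPM (SD, n = 5). In kidney, the counts were 0, 0, 0, 1 and 7 reads. The kidney replicates without a read allow up to 2.75, 0.449 and 2.03 RPM, and replicates 4 and 5 held 0.173 and 1.35 RPM. As point values, 4 brain samples lay above every kidney value and limit. Brain replicate 2, at 3.11 RPM, was the closest to the limit of 2.75 RPM. The counting error of the brain counts was not set against these limits. The lowest brain sample, with 3 reads, lay below the limits of kidney replicates 1 and 3 and could not be set apart from them at this depth.

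Outside these tissues, 49 of 66 libraries had no read of miR-211, 16 had 1 to 3 reads and 1 had more. The exception was thymus replicate 4, with 20 reads or 5.85 RPM, which lay above 2 brain samples, while the other thymus samples had 0 or 1 read. Bone marrow, jejunum, pancreas and testis had none, and the shallow testis and bone marrow libraries allow up to 13.7 and 18.5 RPM. The brain mean was 24.2 times the mean outside brain, and the kidney mean 0.398 times the mean outside kidney. Without thymus replicate 4 the brain fold was 33.2, and without kidney replicate 5 the kidney value was 0.0564.

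**Figure D3:**
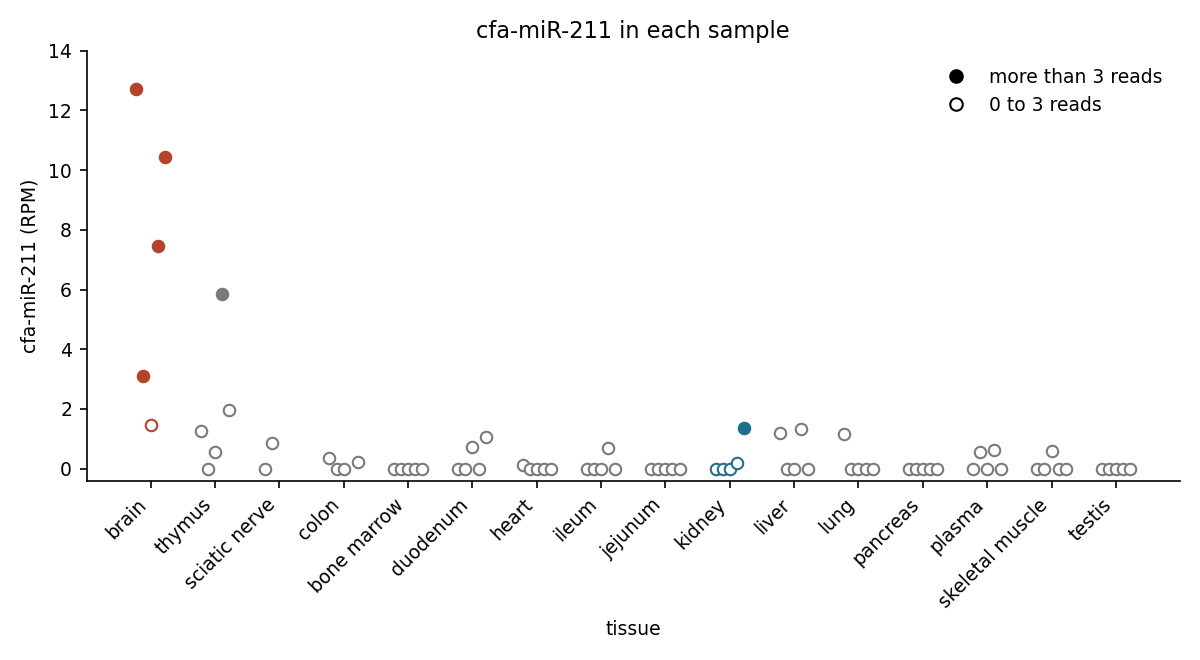
miR-211 in each sample as RPM on a linear axis, with filled points for samples with more than 3 reads. Filled points are 4 of 5 brain samples (3.11 to 12.7 RPM), thymus replicate 4 (5.85 RPM) and kidney replicate 5 (1.35 RPM).

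The balance between the members was taken from the reads pooled over each tissue, as a description. In brain, miR-211 made up 0.0794% of the reads of both members (exact 95% binomial interval 0.0603% to 0.103%), and in kidney 0.00511% (0.00220% to 0.0101%), where 7 of the 8 reads came from replicate 5. The intervals cover counting error only and not the spread between samples. In thymus the share was 0.390% (0.247% to 0.585%), most of it from replicate 4. Single samples of brain and kidney overlapped: brain replicate 3 at 0.00801% lay below kidney replicate 5 at 0.0206%. Testis, the next tissue by miR-204, had no miR-211 read among 4209 miR-204 reads, which allows a share of up to 0.0876%.

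Within brain the members did not move together. The miR-211 share was 0.235%, 0.0791%, 0.00801%, 0.0907% and 0.367% in replicates 1 to 5. Brain replicate 3 was the highest in miR-204 and the lowest in miR-211, in reads and in RPM. By RPM, miR-204 was lowest in brain replicate 5 and miR-211 highest in brain replicate 1. Across the 16 tissue medians the members had a Pearson correlation of 0.432 on log2(RPM + 1) and a Spearman correlation of 0.284, with points that share libraries and depth and with miR-211 at a median of 0 in 12 tissues. How the aligner shared reads between near-identical mature forms could not be resolved from the counts.

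The 3p arm of the miR-204 hairpin, usually the less abundant strand, followed the 5p arm to kidney and brain at a far lower level. It had 388 reads, 308 in kidney, 57 in brain and 23 elsewhere. In kidney it stood at 0.917, 9.72, 5.42, 25.6 and 16.6 RPM, and in brain at 1.27, 4.35, 7.37, 16.3 and 1.30 RPM. These values overlap, with the highest in kidney replicate 4 and brain replicate 4.

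The 3p arm was a small part of the miR-204 reads in both tissues. Its share of both arms was 0.147 ± 0.108% in kidney (SD, n = 5; 0.0146% to 0.261%) and 0.0836 ± 0.0719% in brain (SD, n = 5; 0.0235% to 0.198%). A two-sided exact permutation test, chosen after the values were seen, gave p = 0.294 for the difference of 0.0637 percentage points (n = 5 and 5, smallest possible p 0.00794). The 96.8% interval of the difference, -0.0961 to 0.221 percentage points, leaves room for a difference in either direction. The share is divided mostly by reads of miR-204, which was selected on these tissues. Kidney replicate 1, brain replicate 1 and brain replicate 5 held only 1, 1 and 3 reads of the 3p arm. The test therefore cannot decide whether the shares differ. The difference was 0.0352 percentage points without kidney replicate 4, 0.0375 without kidney replicate 5, 0.0968 without kidney replicate 1, and 0.118 from reads summed over each tissue.

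**Figure D4:**
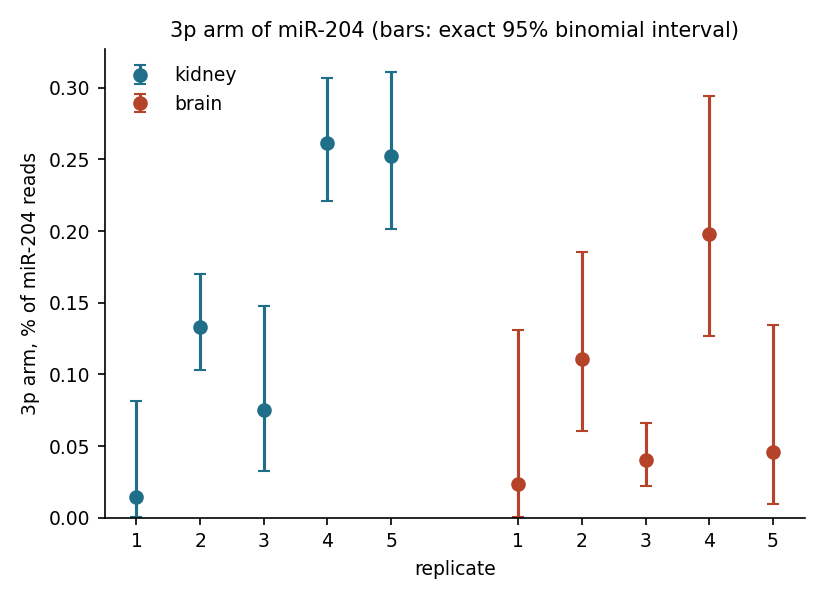
Share of the 3p arm in all miR-204 reads for each kidney and brain replicate, in percent, with exact 95% binomial intervals. Kidney spans 0.0146% to 0.261% and brain 0.0235% to 0.198%, and the ranges overlap.

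The tissue labels were checked against lists of miRNAs with known sites of expression, and each list was also read for what it shared with the members. An miRNA was called higher or lower in a tissue when its mean was more than 5 times higher or lower than that of the remaining samples and a two-sided exact rank-sum test gave a Benjamini-Hochberg adjusted p under 0.05. In kidney, 5 of 650 forms were higher (0.769%) and 7 lower (1.08%), and in brain 189 were higher (29.1%) and 31 lower (4.77%). With TMM these counts were 9 and 5 in kidney and 152 and 65 in brain, and with DESeq2 size factors 7 and 5 in kidney and 173 and 47 in brain. The median fold over all forms was 0.213 in kidney and 1.10 in brain.

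The 5 forms counted as higher in kidney include the 2 arms of the miR-204 hairpin. The members were selected on their levels in kidney and brain, so this place in the count is no test of them. The other 3 came from the HOX clusters, which encode the positional transcription factors of the trunk. They were cfa-miR-196a (5.73-fold, adjusted p = 0.00139), hsa-miR-10b-3p (6.01-fold, adjusted p = 0.00139) and hsa-miR-196a-3p (8.37-fold, adjusted p = 0.00528), by the exact rank-sum test. Kidney held miR-196a at 753, 533, 378, 473 and 336 RPM, while no brain sample exceeded 1.36 RPM. The list of HOX cluster miRNAs had 3 of its 8 forms higher in kidney and none lower, with a median fold of 3.098.

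The list for renal tubule and collecting duct epithelium had 30 forms, of which the same 3 were higher in kidney and none lower at an adjusted or an unadjusted p under 0.05, with a median fold of 1.16. The edgeR test sets kidney against the mean of the other 15 tissues on a log scale. It called 15 of 29 forms higher, against 25 of the 453 forms that passed its filter. The DESeq2 test called 10 of 30 higher, against 19 of 650 over all forms. Neither called a form of this list lower, against 14 of 453 and 33 of 650. The 8 HOX cluster forms are part of this list. Its miR-30 family, miR-192, miR-194 and miR-200 family are common to several epithelia, and none of these passed the rank-sum test with its fold limit in kidney. cfa-miR-30a (47978 to 118356 RPM) reached 3.28-fold, and cfa-miR-192, at 31926 to 56013 RPM, was 0.643 of the other samples, with its highest values in jejunum.

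The neuronal forms were near background in kidney, with a summed level of 228 to 614 RPM against 47017 to 101675 RPM in brain, and cfa-miR-124, a neuronal miRNA, at 0 to 0.771 RPM. The forms from introns of HTR2C summed to at most 0.598 RPM in kidney. None of the forms on the neuronal, HTR2C, ciliated and oligodendrocyte lists was called in kidney by the rank-sum test, and 1 neuronal form was lower at an unadjusted p. The edgeR test called 1 of 12 neuronal forms lower in kidney, against 14 of 453 over all forms. It called 5 of 15 forms of the ciliated and epithelial list higher, all of the miR-200 family, against 25 of 453. The DESeq2 test called 3 of 13 neuronal forms lower, against 33 of 650, and 3 of 16 forms of that list higher, against 19 of 650. cfa-miR-375, an miRNA of endocrine cells, was lower in kidney at 0.000792-fold (adjusted p = 0.00701, exact rank-sum test).

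In brain, the neuronal miRNAs were higher in 14 of 14 forms, with a median fold of 105, against the 29.1% of all forms called higher. cfa-miR-124 stood at 2971, 2466, 4442, 4574 and 2067 RPM in replicates 1 to 5, and no sample of another tissue exceeded 8.56 RPM. cfa-miR-9, a regulator of neural progenitors, held 21762 to 40348 RPM. The oligodendrocyte miRNAs miR-219 and miR-338 were higher in 4 of 5 forms, with a median fold of 7.67, a count that was 2 with TMM.

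HTR2C is the serotonin receptor gene most active in the choroid plexus. The list nearest to the known home of miR-204 in the brain held miRNAs from introns of this gene. All 7 forms of the list were higher in brain. Their median fold was 3014, or 339 with the 3 forms that had no read elsewhere set to 3 reads over the group of other samples. The edgeR test called 3 of the 3 forms that passed its filter, and the DESeq2 test 1 of 6. Their summed level was 159 to 2321 RPM in brain, and the highest sum in any other sample was 19.7 RPM, in testis.

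The miRNAs of ciliated and other epithelial cells were called differently by different tests in brain. By the rank-sum test none of 16 forms was higher, also at an unadjusted p, and 3 were lower, a count of 1 without brain replicate 3 or 5. The edgeR test called 3 forms higher and 2 lower, and the DESeq2 test 4 higher and 4 lower. The list combines the miR-34b/c and miR-449 families of ciliated cells with the miR-200 family of epithelia. The HOX cluster forms were lower in brain in 5 of 8 forms, with a median fold of 0.00660, and the renal list in 7 of 30, with a median fold of 0.0872 and 4.77% of all forms called lower. miR-7, found in neurons and endocrine cells, was higher (7.98-fold, adjusted p = 2.80e-04, exact rank-sum test), a call lost with TMM.

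The spread of miR-204 over the brain samples was read against these lists sample by sample. Among 382 miRNAs with at least 10 RPM in a brain sample, brain replicate 3 was the highest of the 5 samples for 18.3%, against 25.9% for replicate 1, 12.3% for replicate 2, 38.7% for replicate 4 and 4.71% for replicate 5. Within the HTR2C list, 6 forms had at least 10 RPM, and replicate 3 was the highest for 2 and the lowest for 4. The share of all miRNAs lowest in each replicate was not counted. The summed list was 310, 159, 2321, 266 and 272 RPM in replicates 1 to 5. Its sum therefore peaked in replicate 3 as miR-204 did, through few of its forms, while its forms did not all move with miR-204.

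The forms highest in brain replicate 3 were hsa-miR-1298-5p and hsa-miR-1911-5p. miR-1298-5p stood at 246, 109, 2225, 148 and 202 RPM, 9.06 times the next sample in replicate 3. miR-1911-5p stood at 11.5, 4.97, 75.6, 4.74 and 7.39 RPM. In contrast, cfa-miR-448 of the same list was lowest there, with 20.4, 24.6, 11.8, 28.5 and 19.5 RPM, and hsa-miR-1264 as well, with 22.9, 9.33, 6.38, 39.3 and 15.2 RPM.

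The ciliated cell miRNAs shared the peak in replicate 3. cfa-miR-34c stood at 53.4, 133, 1939, 21.01 and 161 RPM in replicates 1 to 5 and cfa-miR-449a at 0, 3.73, 34.4, 0.678 and 3.48 RPM. The miR-200 family did not: cfa-miR-429 was at 5.09, 1278, 0.982, 4.07 and 115 RPM, with its peak in replicate 2. Of 12 forms of that list with at least 10 RPM, 5 were highest in replicate 3 and 7 in replicate 2.

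Other miRNAs also set brain replicate 3 apart. cfa-miR-192, an miRNA of liver and gut epithelium, was at 23546 RPM there against 2518 to 3151 RPM in the other brain samples, and cfa-miR-194, its partner in the genome, at 430 RPM against 44.7 to 87.0 RPM. The activity-dependent neuronal miRNAs were low: cfa-miR-132 was at 486 RPM against 2220 to 5926 RPM, and cfa-miR-212 at 38.3 RPM against 398 to 857 RPM. cfa-miR-137, another neuronal miRNA, was at 0.982 RPM against 34.8 to 238 RPM, while cfa-miR-124 and cfa-miR-9 were within or above the range of the other samples.

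The summed neuronal list was 101675, 84457, 70494, 100382 and 47017 RPM in brain replicates 1 to 5, lowest in replicate 5, which also had the lowest miR-204. Of 13 neuronal forms with at least 10 RPM, replicate 3 was the lowest for 6 and the highest for 2. Replicate 5 was the lowest for the other 7. The labels do not say which part of the brain each sample was. The part of tissue composition in the spread of miR-204 was not tested.

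**Figure D5:**
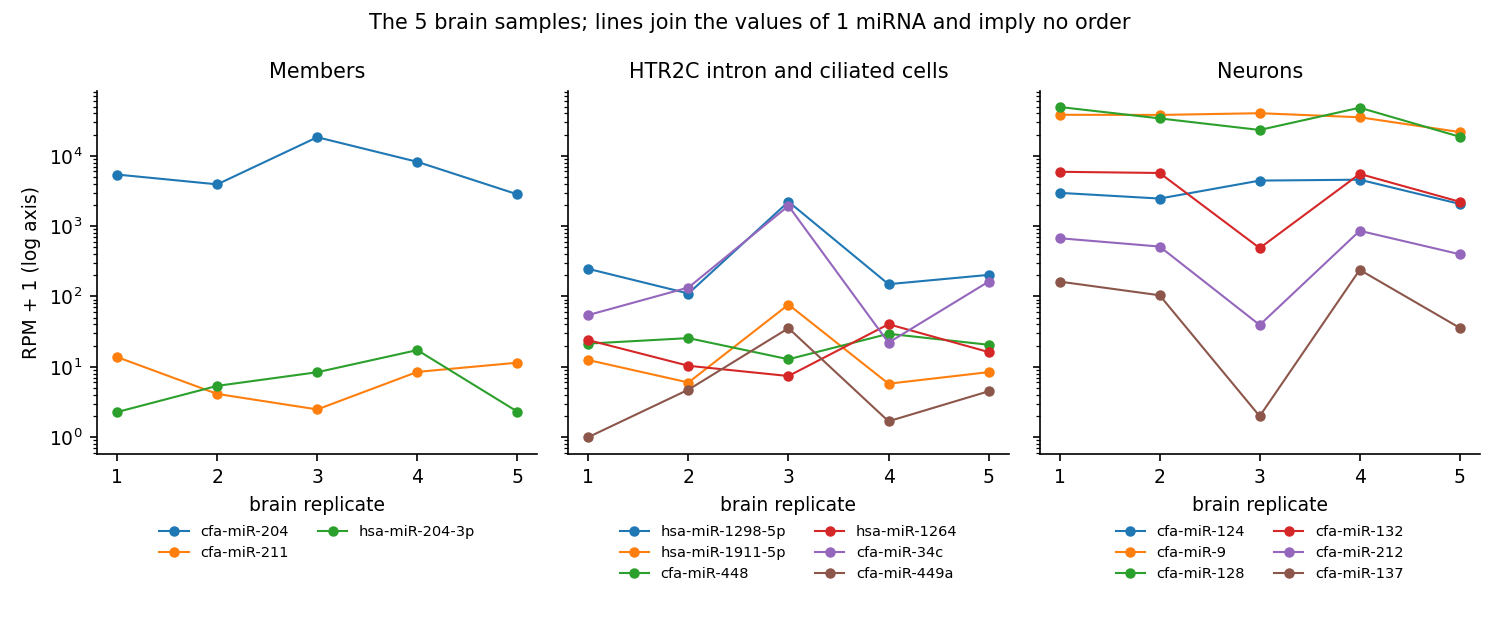
Levels in the 5 brain replicates as RPM + 1 on a log axis. Panels show the members and the 3p arm (left), miRNAs of the HTR2C list and of ciliated cells (middle) and neuronal miRNAs (right). The lines join values of a single miRNA. In replicate 3, miR-204 (18388 RPM), miR-1298-5p (2225 RPM) and miR-34c (1939 RPM) peak, while miR-132 (486 RPM), miR-212 (38.3 RPM) and miR-137 (0.982 RPM) are at their lowest. Of the other neuronal miRNAs, miR-9 (40348 RPM) is highest there and miR-124 (4442 RPM) is within the range of the other replicates.

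In testis and thymus the members also differed widely between samples. In testis replicates 1 to 5, miR-204 at 2794, 1152, 733.6, 3352 and 3235 RPM stood beside summed levels of the ciliated and epithelial list of 57546, 12246, 12942, 104789 and 89983 RPM. The 3 samples high in miR-204 were those high in that list, which miR-34c and its family lead in testis. The same 3 were also high in the summed neuronal list, at 1327, 485, 381, 1785 and 1567 RPM in replicates 1 to 5. The split was therefore not particular to the ciliated and epithelial list. The miR-204 median of testis was 3014 RPM without replicate 3, the only deep testis library.

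Thymus replicate 4, the sample with 20 reads of miR-211 and the highest miR-204 of that tissue, also had the highest summed neuronal list outside brain, 5357 RPM. Of this sum, 5216 RPM was cfa-miR-128, which is found in neurons and in blood cell lineages, while cfa-miR-124 was at 0.878 RPM and cfa-miR-9 at 25.2 RPM. In the 2 sciatic nerve samples, with miR-204 at 1070 and 259 RPM, the summed oligodendrocyte list was 2032 and 2852 RPM. This sum was mostly miR-338, since outside kidney and brain cfa-miR-219-3p reached at most 1.54 RPM and no cfa-miR-219-5p form exceeded 41.8 RPM. miR-211 was at 0 and 1 read in the sciatic nerve samples. The part of other cell types in these values was not tested.

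The miRNAs with a tissue pattern most like each member were found from the Pearson correlation of log2(median RPM + 1) over the 16 tissues among 430 candidates. For miR-204 they were cfa-let-7c (0.803), hsa-miR-500a-5p (0.791), cfa-miR-181a (0.745), cfa-miR-125b (0.729) and cfa-miR-708 (0.726). None of these had kidney and brain as its top tissues: let-7c was highest in sciatic nerve (17047 RPM) and miR-181a in brain (178387 RPM). With a Spearman correlation, 3 of the 5 were again among the most alike.

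For miR-211 the most alike were hsa-miR-128-2-5p (0.955), hsa-miR-487a-5p (0.949), cfa-miR-539 (0.932), hsa-miR-1264 (0.932) and hsa-miR-935 (0.932), each of which had its highest median in brain and a median of 0 in kidney. hsa-miR-1264 is a member of the HTR2C list. With a Spearman correlation, none of these 5 remained among the most alike.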

How the data were processed

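Small RNA of tissue samples was measured by miR-seq (TruSeq Small RNA libraries). The authors clipped adaptors, aligned reads to CanFam3.1 without mismatches, and counted with bedtools the reads on known or putative miRNA loci of dog, rat or human annotation. The deposited count is the number of reads per miRNA and sample, and the deposited total the reads on miRNAs. The deposited RPM value, entered as a score because the table stacks all samples, is the count scaled by that total, and recomputed RPM differed by at most 2.89e-09 as a relative difference. The table's highest RPM per miRNA was not used. Counts exceeded totals by 0.0449% to 1.16%, so some reads were counted on more than 1 miRNA. Depth was 157871 to 7896424 reads per sample. Of 77 labelled samples 76 were used, since 1 colon sample had no values, and 1 sample name in the table matched no label with certainty.

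Tissues were compared with all other samples by a criterion modelled on the study's, a fold of means over 5 and a Benjamini-Hochberg adjusted p under 0.05. The p came from the exact two-sided rank-sum test over 650 forms. The lower direction mirrors this criterion. The counts differ from the paper's, which reports no enriched miRNA in kidney and fewer in brain than were called higher here. The source of this difference was not resolved. The members stay in the counts over all forms but carry no p of their own. The text names the members, other arms of their hairpins, the 5 miRNAs most like each (at least 10 RPM in a tissue median, pseudocount 1 RPM) and forms of the marker lists. Members and lists were chosen with earlier results of these data known. Whether the samples of a tissue were separate dogs is not in the labels. The rank-sum test treats all samples as independent, although tissues came from the same dogs and the other samples are grouped by tissue. Its p-values serve as a criterion for calls and do not measure the spread between independent samples. Alternatives were TMM (edgeR 4.0.16), DESeq2 1.42.0 size factors, the edgeR quasi-likelihood and DESeq2 Wald tests, medians, a filter of 10 reads in 5 samples, and samples left out. Python 3.11.15, numpy 2.4.6, pandas 2.3.3, scipy 1.17.1, matplotlib 3.10.9 and R 4.3.3 were used. The procedures were tested on simulated data. Mature sequences were not used here.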

Additional observations from a re-analysis of the deposited data

Results flagged for a closer look

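In pancreas replicate 4, miR-204 stood at 130 RPM (190 reads) against 51.8 to 64.3 RPM in the other 4 pancreas samples, a gap of 0.842 of the group's range where Dixon's limit for 5 samples is 0.71. In kidney replicate 5, miR-211 stood at 1.35 RPM (7 reads) against 0 to 0.173 RPM in the other 4 kidney samples, a gap of 0.872 of the range. These were 2 of 20 groups of samples examined for a sample far from the rest. Dixon's limit assumes normally distributed values, which read counts near 0 do not follow. The flags are therefore a description of single samples, without a chance rate.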

How the results depend on the processing

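The miR-204 fold in kidney, 8.04, was 15.4 with TMM, 12.6 with DESeq2 size factors and 34.9 from medians, and 7.41 to 8.35 with each kidney sample left out. In brain, 8.62 became 26.1 from medians, 4.15 with TMM and 5.90 with DESeq2 size factors, and 5.67 to 9.99 with each sample left out. The miR-211 fold in brain, 24.2, was 6.23 with 1 RPM added to both means, 10.7 with TMM, and 19.3 to 33.2 with samples left out, thymus replicate 4 included. In kidney the miR-211 value of 0.398 ranged from 0.0564 to 0.497 with samples left out, 0.984 with TMM and 0.800 with DESeq2 size factors. A fold of medians is undefined for miR-211, whose median elsewhere is 0. The cause of these shifts was not tested.

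Higher calls in kidney, 5, were 9 with TMM, 25 with the edgeR test, 19 with the DESeq2 test and 4 to 6 with samples left out. Lower calls, 7, were 14 with the filter on low counts, 14 with edgeR, 33 with DESeq2 and 3 to 6 with samples left out (4, 4 and 3 without replicates 3, 4 and 5). In brain, lower calls, 31, were 16 (without replicate 5) to 28 with samples left out, 65 with TMM, 47 with DESeq2 size factors and 56 with edgeR. The edgeR and DESeq2 tests weigh tissues equally and work on a log scale. The edgeR test covered 453 forms, and the filter on low counts left 422. The lists in brain kept their counts of higher calls within 1 with each brain sample left out. Alternatives for the lists, for thymus replicate 4, for testis replicate 3 and for the 3p arm were chosen after seeing the data. No paired analysis was possible because the labels carry no dog number and replicate numbers follow the order of deposit. Depth limits miR-211 most, since 18 of the 24 libraries with a read held 3 reads or fewer.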
